A study of Bos taurus with 4 samples.

Results

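The TGF-beta, BMP and activin signalling genes of the bovine (Bos taurus) embryo were examined in 4 bulk RNA-seq libraries of embryos that had reached 8 to 16 cells on day 3 post insemination. Members were found by gene symbol, with a rule set when earlier results of these data were known: TGFB ligands and receptors, BMP, GDF, SMAD, ACVR, INHA, INHB, FST, LTBP and SMURF symbols, ID1 to ID4, NODAL, NOG, GREM1 and LEFTY2, without GDF9 and BMP15. The symbol rule found 56 transcripts, each of a different gene, among the 14517 RefSeq transcripts of the table. A further 15 symbols of the rule, among them ACVR1B, NOG, ID4, SMURF1, SMURF2 and TGFBR3, were not analysed here. The control group, NC (n = 2 libraries), came from zygotes given negative control small interfering RNAs (siRNAs). The knockdown group, KDM5_KD (n = 2 libraries), came from zygotes given siRNAs against KDM5A, KDM5B and KDM5C, which encode demethylases of lysine 4 on histone H3. KDM5_KD replicate 2 carries conflicting labels: its title names Kdm5, and its treatment entry names KDM6 siRNAs. It was grouped by its title, and the counts over the members are also given without it. The labels give neither the number of embryos per library nor the origin of the replicates, so p-values measure only the spread between these libraries, which may be technical.

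Ligands of this family are secreted dimers that bring type I and type II receptor kinases together. TGF-beta, activin and nodal signal mainly through SMAD2 and SMAD3, and BMPs through SMAD1, SMAD5 and SMAD9. Each of these SMADs enters the nucleus with SMAD4, while SMAD6 and SMAD7 restrain the pathway. Latent TGF-beta binding proteins hold TGF-beta in an inactive store, follistatins trap activins, gremlin traps BMPs, and the ID genes are classic BMP targets. In the ovary the same family links the oocyte with its cumulus and granulosa cells, and in the embryo it takes part in early lineage decisions.

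Levels are given in FPKM, fragments scaled to transcript length and to library size, so levels can be compared between genes. The FPKM of all transcripts summed to 287950 and 283347 in NC and to 322267 and 297389 in KDM5_KD. Transcripts at 1 FPKM or more numbered 8721 and 8427 in NC and 9076 and 9160 in KDM5_KD. The main comparison was not scaled for these differences. Absolute depth is unknown, and the steps between low values put the other libraries at 0.683 to 0.802 times the depth of NC replicate 2. The targeted gene KDM5A measured 28.4 and 27.1 FPKM in the controls against 10.5 and 10.1 FPKM after knockdown, or 37.1% of the control level (adjusted p in limma of 0.0333). KDM5C was at 28.1 and 40.6 against 15.1 and 17.8 FPKM, or 47.9% (adjusted p in limma of 0.123). Both were low in the knockdown library with the conflicting label too, while KDM6A was at 9.29 FPKM there, at 7.90 FPKM in the other knockdown library, and at 7.63 and 11.3 FPKM in the controls. KDM5B was not analysed here. Markers of oocyte and early embryo were present in all 4 libraries, with a summed level of 379 to 646 FPKM over 15 transcripts.

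Of the 36 signalling genes tested, 30 had a higher mean log2 level in the knockdown libraries (83.3%), against 62.6% of all transcripts tested. The differences were largest for the activin antagonist FSTL3, the ligands TGFB1 and BMP2, the activin subunit INHBB, the BMP inhibitor GREM1, the inhibin subunit INHA and the TGF-beta binding protein LTBP1. The activin receptor gene ACVR2B, the most abundant receptor, had a lower mean. No single signalling gene passed the threshold, an adjusted p under 0.05 in limma over the 8970 transcripts with a mean of at least 1 FPKM. FSTL3 came closest, with an adjusted p in limma of 0.0548. Of the 56 members, 36 reached that mean and were tested.

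Each log2 difference below is KDM5_KD minus NC after adding 1 to the FPKM, a scale that makes the fold changes of low genes look smaller than they are. At least 2-fold higher were 7 of the 36 members, and 0 were 2-fold lower. Over all transcripts tested, 4.52% were 2-fold higher and 0.301% lower. An unadjusted limma p under 0.05 was found for 16 members with higher and 1 with lower levels, against 14.3% and 3.12% of all transcripts. With adjustment 0 members were called in either direction, and 0.19% of all transcripts were called higher and 0.0892% lower. For 23 members both knockdown libraries lay above both controls, and for 4 both lay below, where the shares over all transcripts tested were 35.1% and 15.6%. With median-ratio scaling 18 lay above and 4 below, and after quantile normalization 18 lay above and 6 below. The shares over all transcripts were not taken under these scalings. The all-transcript median log2 difference moved from 0.09 to -0.01 with the first and to -0.04 with the second. The filter on the mean let through 4 members whose NC mean was under 1 FPKM (SMAD9, GREM1, LTBP3 and INHA) and had to differ to pass. Without a filter, 32 of the 56 lay above and 4 below, against 33.4% and 13.5% of the 12687 transcripts listed above 0 in at least 1 library. In bulk RNA a change in the number of cells of a type and a change in RNA per cell cannot be told apart.

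**Figure D1:**
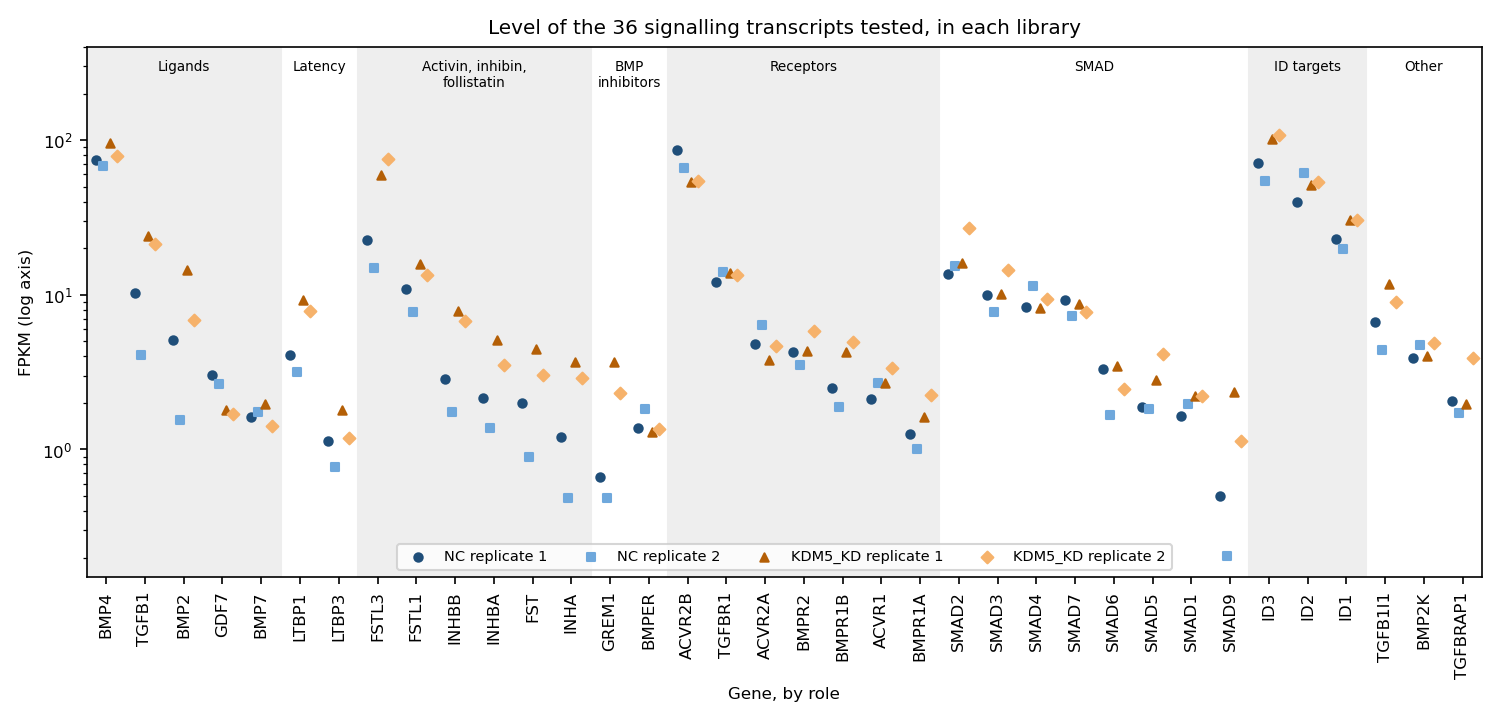
FPKM (log axis) of the 36 tested signalling transcripts in each of the 4 libraries, grouped by role and ordered by mean. Circles and squares are NC, triangles and diamonds KDM5_KD. BMP4, ACVR2B and ID3 are the most abundant, and the control symbols lie below the knockdown symbols for all 6 genes of the activin, inhibin and follistatin group.

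BMP4, a BMP ligand with roles in trophoblast and mesoderm formation, was the most abundant ligand. It had 74.1 and 67.9 FPKM in the NC libraries and 95.5 and 79.3 FPKM in the knockdown libraries. The groups did not overlap as deposited but did after median-ratio scaling, and the log2 difference was 0.29 (SE 0.138, adjusted p in limma 0.345). BMP4 took 83.0% to 91.1% of the summed FPKM of all BMP and GDF ligands in each library. BMP2, a close relative that uses the same receptors, measured 5.09 and 1.55 FPKM in the controls against 14.5 and 6.92 FPKM after knockdown. In BMP2 the groups did not overlap, but NC replicate 1 lay nearer to KDM5_KD replicate 2 than to the other control. The log2 difference of 1.49 (SE 0.491) had an adjusted p in limma of 0.212.

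TGFB1, the founding TGF-beta ligand, was the main one of its 3 genes, with 81.1% to 94.7% of their summed FPKM. It measured 10.2 and 4.06 FPKM in the controls against 23.8 and 21.2 FPKM after knockdown. The knockdown libraries were close together and the controls were 2.52 times apart. The mean was 3.15 times the control mean, and the log2 difference was 1.64 (SE 0.367, adjusted p in limma 0.131). With NC replicate 1 left out, the log2 difference was 2.21, and with NC replicate 2 left out it was 1.07. TGFB2 did not reach the filter, with 0.585 and 0.816 FPKM against 1.12 and 1.0 FPKM.

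GDF7, a BMP-type ligand, went the other way. It measured 3.05 and 2.64 FPKM in the controls against 1.81 and 1.69 FPKM after knockdown, so both knockdown libraries were below both controls. Its log2 difference was -0.48 (SE 0.200, adjusted p in limma 0.293). BMP7, another BMP ligand, overlapped between groups, at 1.62 and 1.74 against 1.97 and 1.42 FPKM, and after quantile normalization both knockdown libraries lay below both controls. The BMP7 log2 difference of -0.00 had a 95% interval from -0.53 to 0.52. The other 12 ligand transcripts stayed under a mean of 1 FPKM. NODAL, the ligand of axis formation, had 0.137 to 0.349 FPKM. BMP5, BMP8A, BMP10, GDF2, GDF5 and GDF15 were each listed at 0 in at least 1 library.

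LTBP1, a latent TGF-beta binding protein gene, measured 4.06 and 3.15 FPKM in the controls against 9.24 and 7.88 FPKM after knockdown. The groups were well apart, and the log2 difference was 1.06 (SE 0.206, adjusted p in limma 0.109). LTBP3 was lower in level and nearly overlapped, at 1.14 and 0.768 against 1.79 and 1.19 FPKM, with a log2 difference of 0.35 (SE 0.234, adjusted p in limma 0.493). After either scaling its groups overlapped. LTBP2 was listed at 0 in 3 libraries and at 0.0171 FPKM in NC replicate 2.

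The activin, inhibin and follistatin genes made up 9 transcripts, of which 6 were tested and 0 passed the adjusted threshold. In these 6 both knockdown libraries lay above both controls, as in 35.1% of all transcripts tested and in 47.4% of those at 1 to 5 FPKM, where 4 of the 6 lie. Among them INHA had an NC mean under 1 FPKM and passed the filter through the knockdown group. FSTL3, a secreted follistatin-like protein that binds activin, was the most abundant of them. It measured 22.7 and 14.9 FPKM in the controls against 59.8 and 75.8 FPKM after knockdown. The lowest knockdown library was 2.63 times the highest control. Group means were 18.8 ± 5.52 FPKM for NC and 67.8 ± 11.3 FPKM for KDM5_KD (SD, n = 2 each), and the log2 difference of 1.81 (SE 0.227) had an adjusted p in limma of 0.0548. This p fell under 0.05 with median-ratio scaling (0.0460), robust variance estimation (0.0281), rows summed by gene symbol (0.0452) and without NC replicate 1 (0.00618). Over all alternatives it ranged from 0.00618 to 0.267, the highest without KDM5_KD replicate 2.

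INHBB and INHBA encode the beta subunits whose dimers are the activins. INHBB measured 2.84 and 1.76 FPKM in the controls against 7.84 and 6.77 FPKM after knockdown. INHBA was at 2.14 and 1.38 against 5.11 and 3.53 FPKM. In both genes the controls stayed below the knockdown libraries, with log2 differences of 1.35 (SE 0.238, adjusted p in limma of 0.106) and 0.94 (SE 0.256, adjusted p in limma of 0.166). INHA, the alpha subunit that turns a beta subunit into inhibin, measured 1.2 and 0.489 FPKM in the controls against 3.67 and 2.91 FPKM after knockdown. Its log2 difference was 1.24 (SE 0.264, adjusted p in limma 0.124). Without NC replicate 1, the log2 differences of INHBB and INHA were 1.59 and 1.52. Without NC replicate 2 they were 1.11 and 0.961. INHBC and INHBE, further beta subunits, did not exceed 0.171 FPKM in any library.

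FST, follistatin itself, measured 1.99 and 0.895 FPKM in the controls against 4.47 and 3.02 FPKM after knockdown, giving a log2 difference of 0.98 (SE 0.30, adjusted p in limma 0.196). FSTL1, a secreted glycoprotein with a follistatin domain, was at 10.8 and 7.80 against 15.9 and 13.3 FPKM, with a log2 difference of 0.61 (SE 0.209, adjusted p in limma 0.226). Markers of cumulus and granulosa cells, which express several of these genes, were also higher in sum. The sums were 156 and 85.2 FPKM in NC and 305 and 241 FPKM in KDM5_KD. Without TIMP1, a broadly expressed gene, they were 76.8 and 67.7 against 119 and 114 FPKM. The part of such cells in these values was not tested. The summed FPKM of INHBA and INHBB was 4.98 and 3.14 in NC and 13.0 and 10.3 in KDM5_KD. The summed FPKM of FST and FSTL3 was 24.7 and 15.8 against 64.3 and 78.9. The ratio of the second sum to the first, taken within each library on the deposited values, was 4.97 and 5.03 in NC and 4.97 in KDM5_KD replicate 1. In KDM5_KD replicate 2, the library with the conflicting label, it was 7.65.

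**Figure D2:**
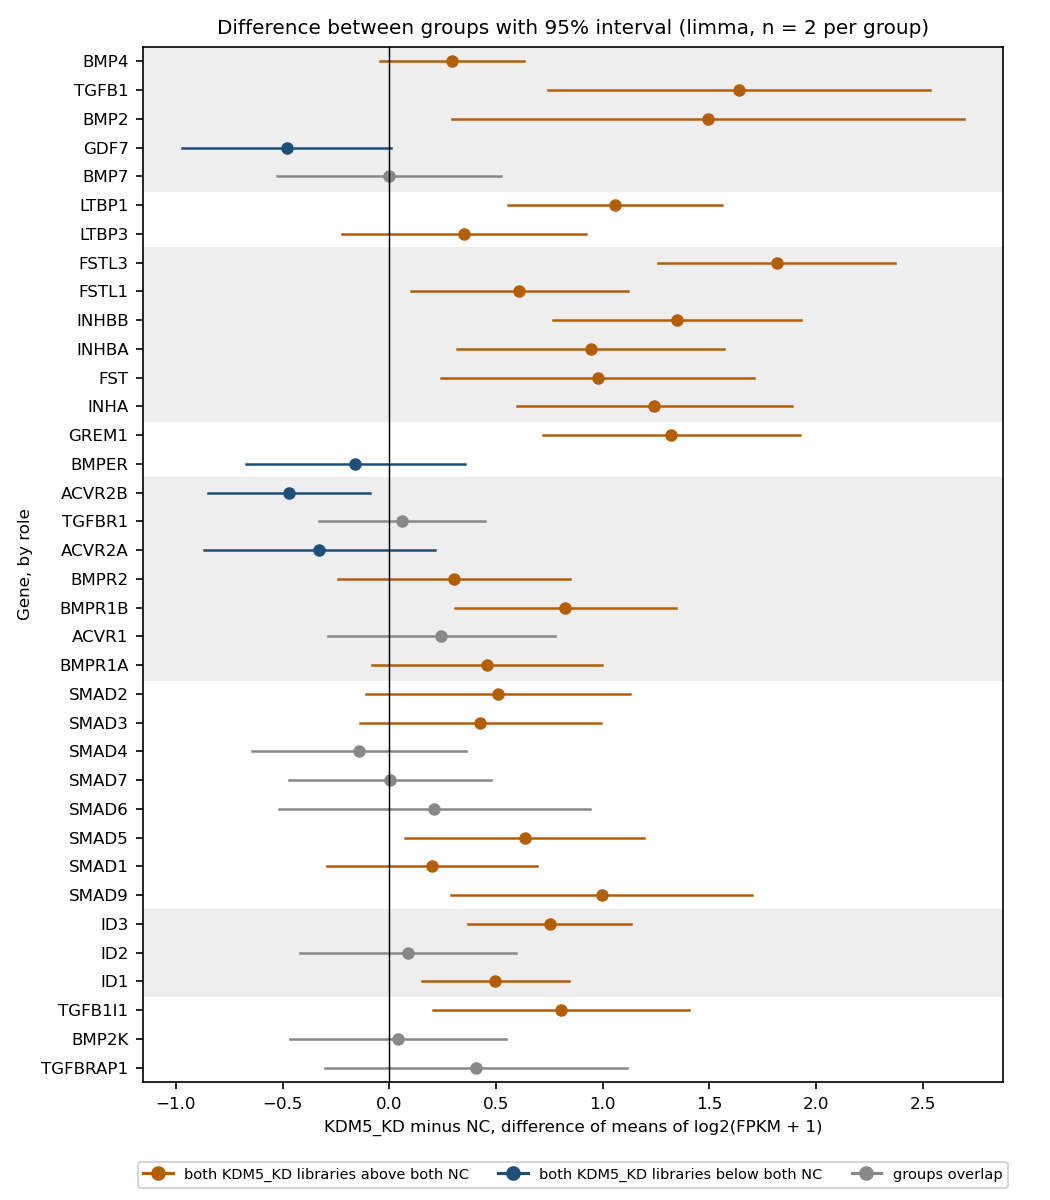
Difference between group means on the log2(FPKM + 1) scale with its 95% interval from limma (n = 2 libraries per group), by role. Orange marks both KDM5_KD libraries above both NC libraries (23 genes), blue both below (4 genes) and grey overlap (9 genes). FSTL3 has the highest difference at 1.81 and GDF7 the lowest at -0.48. The intervals are not adjusted for the number of transcripts tested.

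Among extracellular BMP inhibitors, GREM1, which encodes gremlin and is known as a cumulus cell gene in cattle, measured 0.661 and 0.483 FPKM in the controls against 3.66 and 2.30 FPKM after knockdown. Both control values were under 1 FPKM, and the log2 difference was 1.32 (SE 0.247, adjusted p in limma 0.107). BMPER, a modulator that binds BMPs outside the cell, measured 1.38 and 1.84 FPKM in the controls against 1.31 and 1.35 FPKM after knockdown. The gap between the groups was small beside the spread of the controls, with a log2 difference of -0.16 (SE 0.210, adjusted p in limma 0.747). LEFTY2, which inhibits nodal, did not exceed 0.341 FPKM and was listed at 0 in NC replicate 2.

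Receptors followed no common direction. ACVR2B, a type II receptor for activins and some BMPs, was by far the most abundant receptor, at 85.9 and 66.1 FPKM in the controls against 53.7 and 54.4 FPKM after knockdown. Both knockdown libraries were below both controls, and the log2 difference was -0.47 (SE 0.155, adjusted p in limma 0.212). It took 90.2% and 86.8% of the summed FPKM of 4 type II receptor genes (ACVR2A, ACVR2B, BMPR2 and TGFBR2) in NC, and 85.5% and 82.3% in KDM5_KD. Its paralog ACVR2A was also lower, at 4.79 and 6.42 against 3.79 and 4.70 FPKM, with a log2 difference of -0.33 (SE 0.222, adjusted p in limma 0.498). The gap between the lowest control and the highest knockdown library was only 0.0963 FPKM for ACVR2A.

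The BMP type I receptor gene BMPR1B measured 2.48 and 1.88 FPKM in the controls against 4.28 and 4.96 FPKM after knockdown, giving a log2 difference of 0.82 (SE 0.213, adjusted p in limma 0.157). BMPR1A, the other BMP type I receptor of that pair, was at 1.25 and 1.0 against 1.62 and 2.24 FPKM, with an adjusted p in limma of 0.351. BMPR2, their type II partner, was at 4.28 and 3.51 against 4.32 and 5.82 FPKM (log2 difference 0.30, SE 0.222, adjusted p in limma 0.532), and its groups overlapped after either scaling. ACVR1, a type I receptor of BMPs, overlapped between groups, at 2.11 and 2.71 against 2.70 and 3.37 FPKM. TGFBR1, the TGF-beta type I receptor, was the second most abundant receptor and nearly level, at 12.1 and 14.0 against 13.8 and 13.4 FPKM. The TGFBR1 log2 difference of 0.06 had a 95% interval from -0.33 to 0.45 and turned negative under both scalings.

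TGFBR2, the type II receptor that TGF-beta itself binds, missed the filter. It measured 0.309 and 0.129 FPKM in the controls against 0.994 and 1.19 FPKM after knockdown, so that the groups did not overlap. TGFBR1 was 39.3 and 109 times TGFBR2 in NC and 13.9 and 11.3 times in KDM5_KD. ACVR1C, a nodal and activin type I receptor, ranged from 0 to 1.19 FPKM, with its extremes in NC replicate 1 and KDM5_KD replicate 2. ACVRL1, a type I receptor of endothelial cells, reached 0.425 FPKM at most.

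All 8 SMAD genes were tested. SMAD2, which carries activin, nodal and TGF-beta signals, was the most abundant, at 13.7 and 15.3 FPKM in the controls against 16.1 and 27.2 FPKM after knockdown. The difference lay mostly in KDM5_KD replicate 2, and the log2 difference was 0.51 (SE 0.253, adjusted p in limma 0.364). SMAD3, its partner in the same branch, was at 9.96 and 7.71 against 10.1 and 14.5 FPKM, again highest in KDM5_KD replicate 2 (log2 difference 0.43, SE 0.231, adjusted p in limma 0.400). After either scaling the groups overlapped for SMAD2 and SMAD3.

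The BMP-branch SMADs were lower in level. SMAD5 measured 1.89 and 1.82 FPKM in the controls against 2.82 and 4.14 FPKM after knockdown, giving a log2 difference of 0.63 (SE 0.229, adjusted p in limma 0.245). SMAD9 was at 0.497 and 0.203 against 2.37 and 1.13 FPKM. Its log2 difference of 0.996 (SE 0.289, adjusted p in limma 0.181) was just under 2-fold. SMAD1 differed less, at 1.64 and 1.96 against 2.21 and 2.21 FPKM. Summed over these 3 genes, the libraries had 4.02 and 3.99 FPKM in NC and 7.40 and 7.48 FPKM in KDM5_KD.

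SMAD4, the shared partner, measured 8.38 and 11.4 FPKM in the controls against 8.25 and 9.34 FPKM after knockdown, with overlapping groups and a log2 difference of -0.14 (SE 0.206, adjusted p in limma 0.771). After quantile normalization both knockdown libraries lay below both controls for SMAD4. The inhibitory SMAD7 was at 9.19 and 7.28 against 8.72 and 7.70 FPKM. For SMAD7 the log2 difference was 0.00, with a 95% interval from -0.47 to 0.47, and it turned negative under both scalings. SMAD6, the inhibitor more specific to BMP signals, overlapped, at 3.33 and 1.66 against 3.44 and 2.48 FPKM. The signs of the small SMAD1, SMAD6 and ACVR1 differences changed after quantile normalization.

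Of the BMP target genes, ID3 was the most abundant member overall by mean, at 70.7 and 54.2 FPKM in the controls against 102 and 108 FPKM after knockdown. ID proteins are helix-loop-helix factors without a DNA-binding region that hold back differentiation factors. The log2 difference of ID3 was 0.75 (SE 0.156, adjusted p in limma of 0.123). It was 0.94 without NC replicate 1 and 0.56 without NC replicate 2. ID1 was at 22.9 and 19.7 against 30.5 and 30.3 FPKM, with the libraries of each group close together and a log2 difference of 0.50 (SE 0.142, adjusted p in limma 0.177). ID2 did not share this, at 40.1 and 61.0 against 51.6 and 53.6 FPKM, so that the controls enclosed the knockdown libraries. Its log2 difference of 0.09 had a 95% interval from -0.42 to 0.59 and turned negative under median-ratio scaling.

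The remaining members carry a family name without being a ligand, receptor or SMAD. TGFB1I1, which encodes a focal adhesion adaptor, measured 6.66 and 4.41 FPKM in the controls against 11.7 and 8.96 FPKM after knockdown, giving a log2 difference of 0.80 (SE 0.245, adjusted p in limma 0.195). TGFBRAP1, a vesicle trafficking protein gene, overlapped, at 2.06 and 1.72 against 1.98 and 3.92 FPKM. BMP2K, a kinase gene, overlapped at 3.88 and 4.71 against 4.01 and 4.88 FPKM, and the sign of its small difference turned under both scalings.

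The members were next set beside all transcripts of like level, since low transcripts as a whole sat higher in the knockdown. The median log2 difference was 0.44 over the 36 members and 0.09 over all transcripts tested. Among transcripts with a mean of 1 to 5 FPKM it was 0.38 over 20 members and 0.24 over all. At 5 to 20 FPKM it was 0.56 over 10 members and 0.11 over all, and at 20 FPKM and over it was 0.39 over 6 members and -0.01 over all. Above the controls lay 12 (60%), 7 (70%) and 4 (66.7%) members in these bands, against 47.4%, 36.3% and 22.1% of all transcripts there. The 12 include SMAD9, GREM1, LTBP3 and INHA, whose NC mean was under 1 FPKM and which passed the filter through the knockdown group. After quantile normalization the all-transcript median shifted by -0.14, and the members' median was 0.27.

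**Figure D3:**
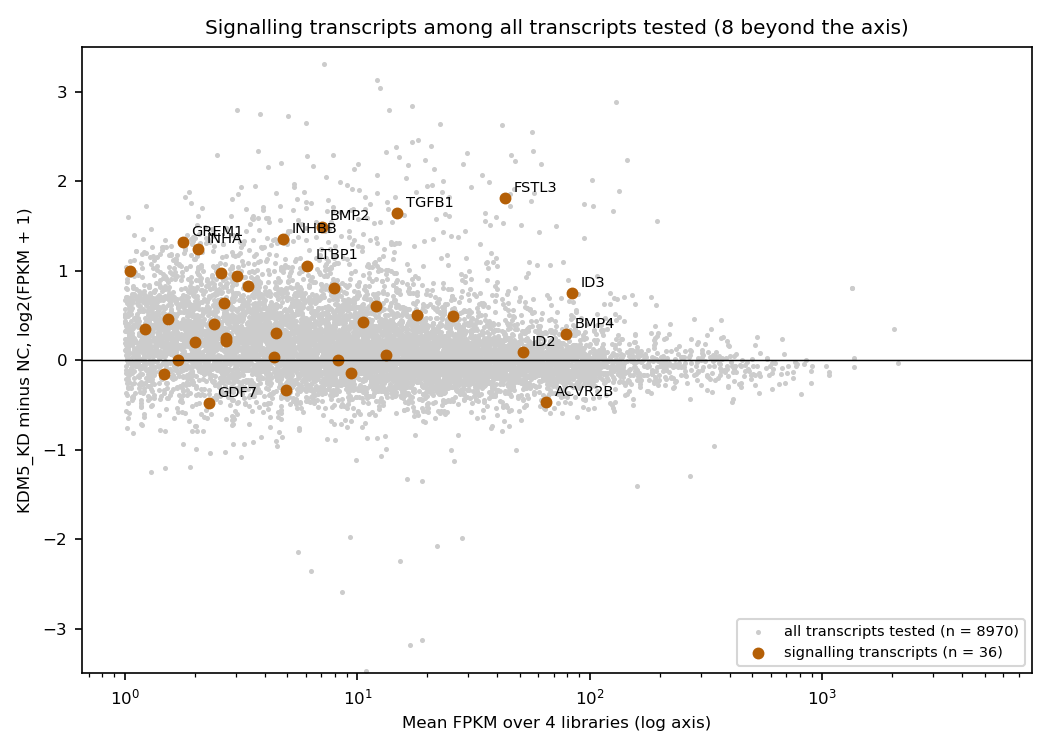
Difference between groups on the log2(FPKM + 1) scale against the mean FPKM over 4 libraries (log axis), for all 8970 transcripts tested (grey) and the 36 signalling transcripts (orange). The 7 members at or above 1 are named, and 8 transcripts lie beyond the vertical axis. FSTL3 is the highest member at 1.81, and the members' median of 0.44 lies above the median of 0.09 over all transcripts.

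The control libraries differed from each other on these genes. In 26 of the 36 members (72.2%) the first control library exceeded the second, against 55.8% of all transcripts tested, and so it did in all 7 members that were 2-fold higher in the knockdown. Without NC replicate 1, 5 members passed an adjusted p under 0.05 in limma (FSTL3, TGFB1, INHA, INHBB and ID3) and 11 were 2-fold higher, and 7 lay below the remaining control. In that fit 340 of the 8970 transcripts were called, against 25 with all 4 libraries. Without NC replicate 2, 0 passed and 4 were 2-fold higher. Without KDM5_KD replicate 2, the library with the conflicting label, 0 passed and 10 were 2-fold higher. Its removal left a median log2 difference of 0.40 over the members, against 0.07 over all transcripts tested. In that fit 25 members lay above and 5 below the controls. With 1 library in a group both orders are met more easily, so counts from 3 libraries do not compare with those from 4. No share above, below or 2-fold changed over all transcripts was taken with a library left out.

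Other genes of the pathway were taken from a list of 68, of which 50 had a row and 40 transcripts were tested. In limma 0 of the 40 passed the adjusted threshold, with 8 higher and 3 lower at an unadjusted p under 0.05, against 14.3% and 3.12% of all transcripts tested. For 12 both knockdown libraries lay above both controls and for 5 below, against 35.1% and 15.6% of all transcripts tested. Their median log2 difference was 0.06, against 0.09 over all. The 4 transcripts that were at least 2-fold higher (10%, against 4.52% of all) were THBS1, PMEPA1, FBN1 and ZEB2, and 0 were 2-fold lower.

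THBS1, thrombospondin, which activates latent TGF-beta, measured 5.85 and 0.893 FPKM in the controls against 23.4 and 24.5 FPKM after knockdown (log2 difference 2.79, SE 0.559, adjusted p in limma 0.114). PMEPA1, a TGF-beta target that damps SMAD signals, was at 2.84 and 0.365 against 7.36 and 7.30 FPKM (log2 difference 1.86, SE 0.469, adjusted p in limma 0.153). In both genes NC replicate 2 was the lowest of the 4 libraries. With NC replicate 1 left out, THBS1, PMEPA1 and FBN1 passed, with adjusted p in limma of 0.00202, 0.00759 and 0.0498. With NC replicate 2 left out THBS1 alone passed, at 0.0326.

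FBN1, fibrillin, which anchors latent TGF-beta complexes, measured 1.44 and 0.668 FPKM in the controls against 3.22 and 4.25 FPKM after knockdown. ZEB2, a SMAD-binding repressor, was at 1.61 and 0.848 against 3.84 and 3.30 FPKM. Their adjusted p in limma were 0.128 and 0.139. The 3 most abundant genes of the list were BAMBI, TGIF1 and PPM1A. BAMBI, a decoy receptor without a kinase, was at 76.2 and 67.6 against 54.6 and 45.9 FPKM (log2 difference -0.51, SE 0.142, adjusted p in limma 0.171). TGIF1, a SMAD corepressor, was at 80.0 and 89.1 against 78.2 and 75.6 FPKM, and PPM1A, a SMAD phosphatase, at 63.3 and 59.9 against 68.2 and 69.1 FPKM.

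Markers of cells that surround the oocyte were measured beside these genes. Of 20 listed cumulus and granulosa markers 19 had a row, and 11 of these reached a mean of 1 FPKM. Of the 19, 14 lay higher in both knockdown libraries than in both controls, and 0 lay lower. Over all transcripts listed above 0 in at least 1 library, the shares were 33.4% and 13.5%. The summed level of the markers was 156 and 85.2 FPKM in NC and 305 and 241 FPKM in KDM5_KD. TIMP1 alone, a broadly expressed gene, gave 78.9 and 17.5 against 186 and 127 FPKM, and without it the sums were 76.8 and 67.7 against 119 and 114. The granulosa markers of this list differed in level. CYP11A1, a steroid synthesis gene, was at 8.41 and 3.79 against 12.5 and 17.2 FPKM, HSD3B1 of the same pathway at 2.52 and 1.75 against 5.78 and 4.8 FPKM, and the transcription factor gene FOXL2 at 0.660 and 0.491 against 1.07 and 1.25 FPKM. HAS2, a cumulus expansion gene, was at 2.70 and 2.07 against 4.44 and 5.96 FPKM. In these 4 genes the groups did not overlap. They did overlap for TNFAIP6 of the same list, at 1.21 and 1.31 against 1.10 and 1.26 FPKM. The groups also overlapped for KITLG, at 28.4 and 33.5 against 37.2 and 33.1 FPKM. The receptor genes FSHR and LHCGR were listed at 0 in both controls and did not exceed 0.0443 FPKM, and CYP19A1 did not exceed 0.0602 FPKM.

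Of 10 fibroblast markers 7 lay above and 0 below, with sums of 64.7 and 51.4 FPKM against 127 and 119 FPKM. For this list and the marker lists that follow, the shares over all transcripts above 0 were again 33.4% and 13.5%. NC replicate 2 had the lowest sum for the cumulus and fibroblast lists, and for the oocyte and erythroid lists below, but not for the leukocyte list. It was also the lowest library for TGFB1, INHA and GREM1. Its FPKM summed over all transcripts, 283347, was the lowest as well. Of 15 oocyte and embryo marker transcripts from 11 genes, 12 of them at a mean of 1 FPKM or more, 8 lay above and 0 below. The 8 include a DDX4 transcript that did not exceed 0.00106 FPKM in any library. Over the 15 transcripts the sums were 470 and 379 against 559 and 646 FPKM. The 7 leukocyte markers summed to 2.0 FPKM or less in every library, with 0 above and 2 below. The 10 erythroid and sperm markers summed to 36.3 and 20.6 against 46.3 and 46.0 FPKM, with 1 above and 2 below. HBA alone gave 31.5 and 5.08 against 38.3 and 33.1 FPKM of that sum. Several members, INHA, INHBA, FST and GREM1 among them, are also expressed by cumulus and granulosa cells. The part of such cells in the signalling gene differences was not tested.

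**Figure D4:**
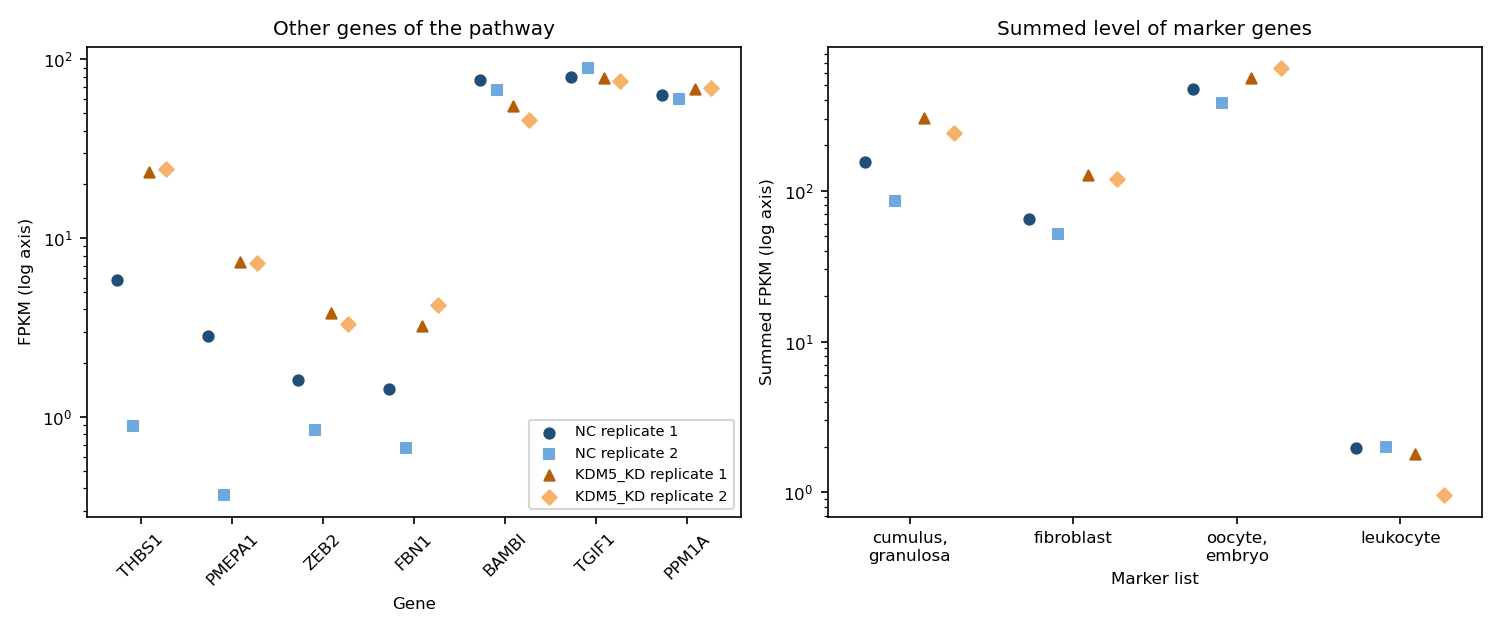
Left, FPKM (log axis) of 7 other genes of the pathway in each library. Right, summed FPKM (log axis) of 4 marker lists in each library. Circles and squares are NC, triangles and diamonds KDM5_KD. THBS1 and PMEPA1 lie highest in the knockdown libraries and lowest in NC replicate 2. The cumulus, fibroblast and oocyte marker sums show the same order of groups, and the leukocyte sum does not.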

How the data were processed

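Polyadenylated RNA was sequenced in 2 NC and 2 KDM5_KD libraries. The authors deposited FPKM values per RefSeq transcript. The submitters' processing notes list Trimmomatic, HISAT2, featureCounts and Cufflinks without versions or roles, and the genome build is not given in the sources used here. Symbols came from the RefSeq gene table of ARS-UCD2.0, matched on accession for 14295 of 14517 rows. Because that build may differ from the authors' build, no coordinates are given.

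The log2 of FPKM plus 1 was tested in limma (version 3.58.1, R version 4.3.3) by lmFit and eBayes with trend, without covariates, on the whole table at a mean of at least 1 FPKM, with Benjamini-Hochberg adjustment over all 8970 rows. The test was checked on simulated data. Without read counts, limits of detection cannot be given. Alternatives were another pseudocount, other filters, 2 scalings, other variance models, a replicate block, rows summed by symbol and each library left out. Members and gene lists were chosen with earlier results of these data known, and 1 gene of the pathway list is not reported here. Genes named under the rule are members that passed or differed 2-fold, the 4 most abundant of each role, and likewise for the pathway list, with its 3 most abundant. Further members, and markers, were named after their values were seen, so that each role is described in full. Plots used Python 3.11.15 and matplotlib 3.10.9.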

Additional observations from a re-analysis of the deposited data

How the results depend on the processing

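The count of members called, 0 as reported, was 1 with median-ratio scaling, with robust eBayes and with rows summed by symbol, each time FSTL3. Over all transcripts, 30 of 8970, 46 of 8970 and 34 of 8868 were called in these fits, against 25 of 8970 as reported. The count for the pathway list, also 0, ranged from 0 to 3 with 1 replicate left out. The number of members 2-fold higher, 7 as reported, was 6 with median-ratio scaling and 5 after quantile normalization. LTBP1 fell under 2-fold with both scalings (0.963 and 0.813), and INHA with the second (0.973). The count was 11 with a pseudocount of 0.1 and 4 with a mean of at least 5 FPKM, and ranged from 4 to 11 with 1 replicate left out. With that stricter filter, which leaves 16 members, 11 lay above and 1 below the controls. With 1 replicate left out, 5 to 7 lay below, an order that 3 libraries meet more easily than 4. The members' median was 0.244 without a filter, which adds 20 transcripts of low level. Reversed signs were found for ID2 (-0.023), SMAD7 (-0.098) and TGFBR1 (-0.046) with median-ratio scaling, and for SMAD7 (-0.198) and TGFBR1 (-0.081) after quantile normalization. With 1 replicate left out, ID2 ranged from -0.211 to 0.385, TGFBR1 from -0.036 to 0.152, SMAD4 from -0.346 to 0.061 and SMAD7 from -0.149 to 0.151. In these fits the lone library of a group is assumed to vary like the other group. The cause of these changes was not tested beyond the fewer or more transcripts and samples that each filter or omission brings.

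With the replicate number as a block, 0 members and 0 of the pathway list were called, 23 members lay above and 4 below, 7 were 2-fold higher and the median stayed at 0.44. Over all transcripts tested, 12 were called with the block and 25 without. FSTL3 had a limma adjusted p of 0.0766. Deviations of same-numbered libraries correlated at 0.229, and the labels do not say that a number marks a shared batch. Depth limits the lowest members most, and 11 members were listed at 0 in at least 1 library.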

Other observations

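The following proportions were taken within each library on the deposited values. SMAD2 and SMAD3 together had 5.88 and 5.76 times the FPKM of SMAD1, SMAD5 and SMAD9 in the NC libraries, 3.55 times in KDM5_KD replicate 1 and 5.58 times in KDM5_KD replicate 2. ID2 made up 30.0% and 45.2% of the summed FPKM of ID1, ID2 and ID3 in NC, and 28.1% and 27.9% in KDM5_KD. INHA was at 0.240 and 0.156 times the sum of INHBA and INHBB in NC and at 0.283 times in both knockdown libraries. SMAD7 was 2.76 and 4.39 times SMAD6 in NC and 2.53 and 3.11 times in KDM5_KD, so that the groups overlapped.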
